A study of Caenorhabditis elegans with 71 samples.

Results

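The deposited expression table of Caenorhabditis elegans larvae lists, beside named genes, entries whose identifier starts with RIT and which carry no gene name. These RIT entries were chosen by that identifier, by the missing name and by a value in at least 1 library. The table holds 2643 such rows. Of these, 562 had no value in any library, which leaves 2081 RIT entries of the 21175 entries with a value; 19083 of the others are named genes and 11 are other entries without a name. The identifiers consist of RIT, a digit from 1 to 6, the letter P or M and a serial number, and the sources used here say neither what the parts stand for nor where an entry lies. The digits 1 to 6 mark 303, 353, 228, 341, 586 and 270 of the RIT entries, and 1092 carry P and 989 carry M. 2 RIT entries had identical values in all libraries.

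Poly(A) RNA of whole larvae was sequenced in 71 libraries from 4 populations. All populations came from embryos that hatched without food and were then plated with OP50 bacteria at time 0. Mutant larvae, lin-4(e912) grown at 20C, were sampled at 25 times from 0 to 48 h (DH4). Wild type N2 larvae were sampled at 25C at 20 times from 0 to 28.5 h (DH3), and at 20C at 20 times from 0 to 38 h (DH2). Another wild type 20C population gave 6 libraries from 38 to 48 h (DH5). Each time point is 1 library, so the p-values rest on the spread among time points, except in fed against arrested larvae. There they rest on the spread of the change among 3 populations, which differ in genotype, temperature and time on food. Genotype and temperature each coincide with a population, and the effects of the pair cannot be told apart. The level of the microRNA lin-4 was not analysed here and did not serve as a check of the genotype label.

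Larvae that hatch without food stop in the first larval stage (L1 arrest) and resume development when fed. From then on many transcripts cycle with the molts, among them those of the cuticle collagens, which are made anew for each cuticle. Genome annotations also hold transcribed regions without a gene name, and such a region can be a separate transcript, an extension of a gene, or a region that overlaps a gene on the opposite strand. In whole larvae, fewer cells of a type and less RNA per cell cannot be told apart.

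Values are RPKM, reads scaled by the length of the entry and by library size. Depth was recovered from the steps between low values as 12.3 to 36.5 M reads per library (median 25.6 M). The absolute depths rest on the annotated lengths of genes with 1 transcript. A value was present for 1259 to 1593 of the 2081 RIT entries per library (median 1431). The steps of 1081 of the 1609 RIT entries with a value in at least 20 libraries fitted whole reads. They gave a median implied length of 684 bases (quartiles 348 and 1720). These lengths are estimates and not bounds, and that of RIT5M.2434 was 85320 bases. The median implied length was 1349 bases (895 and 2526) over 9782 named genes.

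Most RIT entries were low. Their mean RPKM over the 71 libraries had a median of 0.45 (quartiles 0.0919 and 1.98), against 5.84 (0.488 and 21.2) for named genes. A mean of at least 1 RPKM was reached by 781 RIT entries (37.5%) and by 13205 named genes (69.2%), and a mean of at least 10 RPKM by 137 (6.58%) and 7738 (40.55%). A value in all 71 libraries was listed for 807 RIT entries (38.8%), against 13565 named genes (71.1%). At the edge of the rule, 178 RIT entries (8.6%) had a value in 5 libraries or fewer, against 233 named genes (1.2%). A few RIT entries were abundant, and 20 had a mean of 100 RPKM or more.

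RIT1P.688 had the highest mean, 3084 RPKM. Its lowest, median and highest values were 1830, 3410 and 3840 RPKM in lin-4 larvae, 1680, 2610 and 3530 RPKM in wild type at 25C, and 2000, 2940 and 4590 RPKM in wild type at 20C from 0 to 38 h. In each of these series the lowest value was that of the arrested larvae at 0 h. Its most alike named gene over the 71 libraries was rps-25, a small-subunit ribosomal protein gene (Pearson r of log2(RPKM + 1) 0.901). RIT2P.88 (mean 947 RPKM) was highest at 0 h in all 3 series, with 2530, 2920 and 1720 RPKM in DH4, DH3 and DH2, against medians of 684, 1050 and 793 RPKM over each whole series. RIT5M.2434 (mean 456 RPKM) ranged from 301 to 564 RPKM over all libraries and was at 17.6 to 19.7% of the level of rpl-2, a large-subunit ribosomal protein gene (r 0.975). RIT5P.352 (mean 424 RPKM) was at 25.0 to 25.6% of the level of asp-1, an aspartyl protease gene of the intestine, in every library (r 0.999). RIT5M.1807 (mean 436 RPKM) cycled and is described with the cycling entries.

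RIT entries together held 1.573 to 3.007% of the summed RPKM of a library, with a median of 1.803% over the 71 libraries. The share was lower in fed than in arrested larvae in all 3 populations, at 2.10, 2.06 and 1.98% in fed larvae of DH4, DH3 and DH2 (6 h at 20C, 4.5 h at 25C), against 3.01, 2.67 and 2.79% in arrested larvae at 0 h. The arrested values were the highest of each series, and no test was made of a share over the entries. A large part of this difference came from RIT6M.471, which held 15.5, 8.93 and 20.1% of the RIT sum in arrested larvae of DH4, DH3 and DH2. It was higher there than in fed larvae by 3000, 1524 and 3429 RPKM. RIT2P.88 was higher by 1228, 1466 and 750 RPKM, and RIT1P.688 went the other way, by -1626, -1842 and -501 RPKM. Without RIT6M.471 the shares were 2.08, 2.06 and 1.94% in fed larvae, against 2.55, 2.44 and 2.24% in arrested larvae. That entry was left out of the total as well. The 20 RIT entries of highest mean were left out of the RIT sum but kept in the total. The shares were then 0.927, 0.872 and 0.843% in fed larvae, against 1.365, 1.260 and 1.168% in arrested larvae. The order of fed and arrested larvae thus remained in each population. The class was not uniform: in DH4, DH3 and DH2, 594, 717 and 618 RIT entries had the higher value in fed larvae and 1091, 944 and 1105 had it in arrested larvae. These counts take in entries under 1 RPKM and were not made for named genes, so they do not set the class apart.

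**Figure D1:**
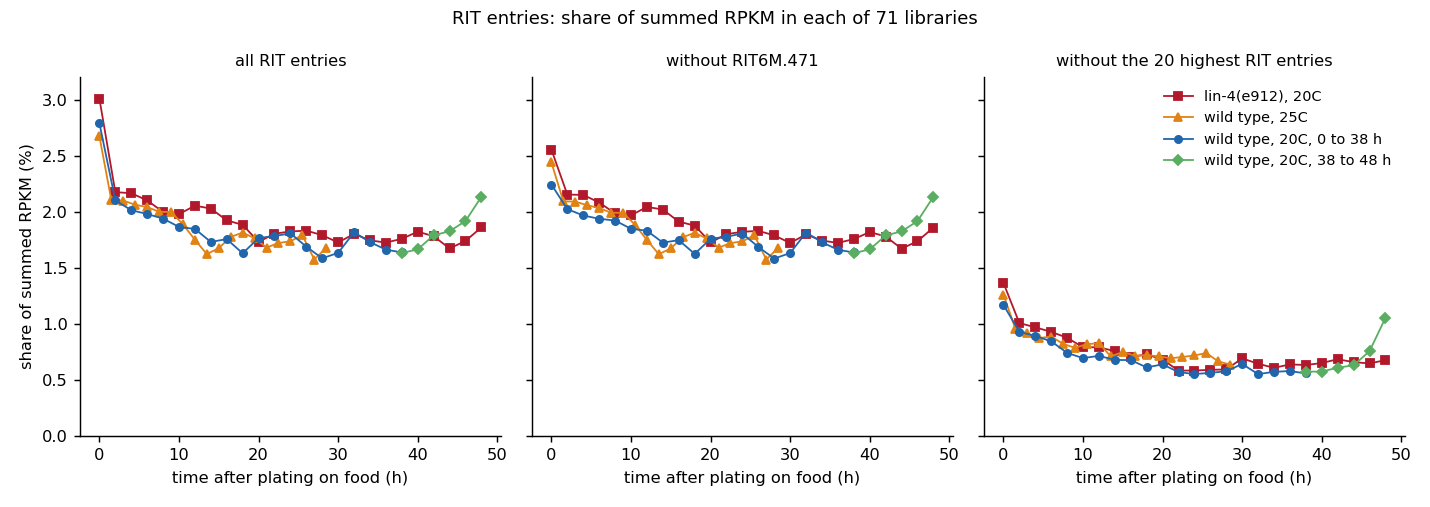
Share of the summed RPKM held by RIT entries (%) against time after plating (h), 1 point per library, for all RIT entries (left), without RIT6M.471 (middle) and without the 20 RIT entries of highest mean RPKM (right). RIT6M.471 is left out of the total as well, while the 20 entries stay in the total. The share is highest at 0 h in lin-4 larvae, wild type at 25C and wild type at 20C in each panel, and in wild type from 38 to 48 h it reaches 2.13% at 48 h with all entries.

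Fed larvae were compared with arrested larvae over the 3 populations with limma on log2(RPKM + 1), with population as a block, for entries with a mean of at least 1 RPKM; calls needed an adjusted p under 0.05 (Benjamini-Hochberg) and at least 1 log2 unit of change. Entries that pass such a filter through 1 group alone are part of every count, and 899 of the 2081 RIT entries were tested. Of these, 36 (4%) were higher in fed larvae, against 8.85% of named genes and 8.54% of all entries tested. A further 110 (12.2%) were lower in fed larvae, against 10.1% of named genes and 10.3% of all entries tested. The median change was -0.28 log2 for RIT entries and -0.15 for named genes. These and the following shares of RIT entries and named genes are set side by side as a description, and no test of a difference between the classes was made.

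RIT6M.471 and RIT6P.1546 had the largest falls among RIT entries that moved one way in all 3 populations. RIT6M.471 had 138, 29.5 and 287 RPKM in fed larvae of DH4, DH3 and DH2, against 3140, 1550 and 3720 RPKM in arrested larvae, a change of -4.62 ± 0.37 log2 (SE; limma, adjusted p 0.0021). Most of the drop had taken place by the first fed library, which had 156 RPKM in DH4 at 2 h, 69.7 RPKM in DH3 at 1.5 h and 568 RPKM in DH2 at 2 h. Its most alike named gene was F09E10.1 (r 0.994), followed by dct-1 (r 0.968), a mitophagy receptor gene. RIT6P.1546 had 28.8, 5.83 and 27.2 RPKM in fed larvae, against 258, 69.5 and 322 RPKM in arrested larvae (-3.33 ± 0.16 log2; limma, adjusted p 0.0014). Fed and arrested values of both entries did not overlap, and in both the 25C population had the lowest value of each group.

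RIT5M.425 and RIT5M.666 had the largest rises. RIT5M.425 had 63.5, 43.8 and 59.8 RPKM in fed larvae of DH4, DH3 and DH2, against 12.0, 3.63 and 4.31 RPKM in arrested larvae (3.03 ± 0.26 log2; limma, adjusted p 0.0024). RIT5M.666 had 86.8, 89.5 and 78.3 RPKM in fed larvae, against 22.3, 19.6 and 16.5 RPKM in arrested larvae (2.08 ± 0.15 log2; limma, adjusted p 0.0019). Groups did not overlap for either entry. RIT5M.666 tracked lys-1, a lysozyme gene of the intestine, with r 1.0 and at 24.5 to 26.0% of its level in every library, and RIT5M.425 tracked F08F3.4 (r 0.995, 46.7 to 62.7% of its level).

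Among RIT entries with a mean of at least 1 RPKM, 291, 243 and 244 of 781 (37.3, 31.1 and 31.2%) had their highest library of DH4, DH3 and DH2 at 0 h. For named genes the shares were 30.7, 26.3 and 28.0%. In all 3 series at once this held for 141 RIT entries (18.1%) and for 2191 named genes (16.6%).

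The share of RIT entries lower in fed larvae was near that of all entries tested, and with rescaled libraries it was 10.3% of RIT entries (85 of 828) and 8.58% of named genes. Within bins of mean RPKM, the share called lower was 9.27% of RIT entries against 7.83% of named genes at 1 to 2 RPKM, 8.59 against 12.8% at 2 to 5, 13.9 against 9.53% at 5 to 10, 20.9 against 8.37% at 10 to 50, and 25 against 14.6% at 50 and over. The share called higher was below that of named genes in each bin, at 3.23 against 3.3%, 3.37 against 4.85%, 2.65 against 7.51%, 6.72 against 8.93% and 10 against 17%, in the same order of bins.

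**Figure D2:**
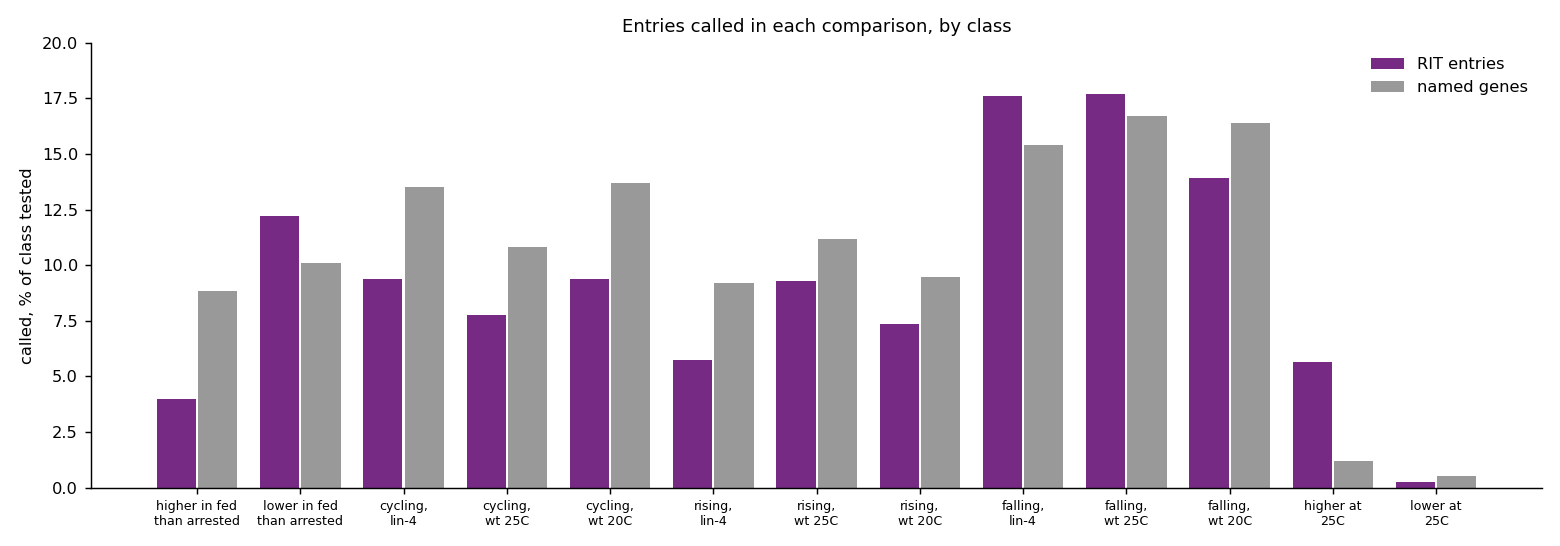
Share of the entries tested that were called (%) among RIT entries (purple) and named genes (grey) in each comparison, by limma with the threshold given in the text. RIT entries are below named genes for entries higher in fed larvae (4 against 8.85%) and for cycling in all 3 series, and above them for entries higher at 25C (5.63 against 1.18%).

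Cycling was tested with a cosine and a sine term together, beside a smooth course of time, in 17 libraries of each series (6 to 38 h at 20C, 4.5 to 28.5 h at 25C). The period was the one that fitted best over all entries tested, which was 14 h in lin-4 larvae, 7.75 h in wild type at 25C and 11.25 h in wild type at 20C. In lin-4 larvae 67 of 714 RIT entries cycled (9.38%), against 13.5% of named genes and 13.3% of all entries tested. At 25C 60 of 773 RIT entries cycled (7.76%), against 10.8% of named genes and 10.6% of all entries tested. In wild type at 20C 65 of 692 did (9.39%), against 13.7% of named genes and 13.5% of all entries tested. The counts in the 25C series depended on the period and the window: limma called 11 RIT entries with a period 1 h longer, 1 when all time points were used, and 0 with a period 1 h shorter, where 113 had an unadjusted p under 0.05. With all time points the count in wild type at 20C was 31.

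Below 5 RPKM the cycling share of RIT entries was under that of named genes in all 3 series, and at 10 RPKM and over it was not in lin-4 larvae and at 25C. In wild type at 20C it was 5.17% of RIT entries against 7.63% of named genes at 1 to 2 RPKM and 7.79 against 15.1% at 2 to 5 RPKM. At 5 to 10, 10 to 50 and 50 RPKM and over it was 15.4 against 14.9%, 13.1 against 13.2% and 21.4 against 15.6%. At 5 to 10 RPKM the share was below that of named genes in the other series, at 7.56 against 15.4% in lin-4 larvae and 7.75 against 11.3% at 25C. The median peak-to-trough range of the entries called was 1.60, 1.58 and 1.68 log2 for RIT entries in lin-4 larvae, wild type at 25C and wild type at 20C, against 1.9, 1.93 and 1.83 log2 for named genes. Peak times were spread over the period. Counted from plating, its 4 equal parts held 27.7, 24.6, 36.9 and 10.8% of the cycling RIT entries in wild type at 20C, against 29.7, 24.2, 34.3 and 11.8% of the cycling named genes. The parts held 26.7, 13.3, 36.7 and 23.3% against 25.9, 10.8, 36.2 and 27.0% at 25C, and 38.8, 20.9, 32.8 and 7.46% against 46.0, 19, 27.2 and 7.75% in lin-4 larvae. Of the cycling RIT entries, 47 were called in both lin-4 larvae and wild type at 20C (70.1% of the 67 and 72.3% of the 65). In both wild type series 36 were called (60% of the 60 at 25C and 55.4% of the 65 at 20C), and 28 were called in all 3 series, which is 4.32% of the 648 RIT entries tested in all of them, against 7.19% of named genes. Among cycling named genes, 79.9% of those in lin-4 larvae and 79.6% of those at 25C were also called in wild type at 20C.

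**Figure D3:**
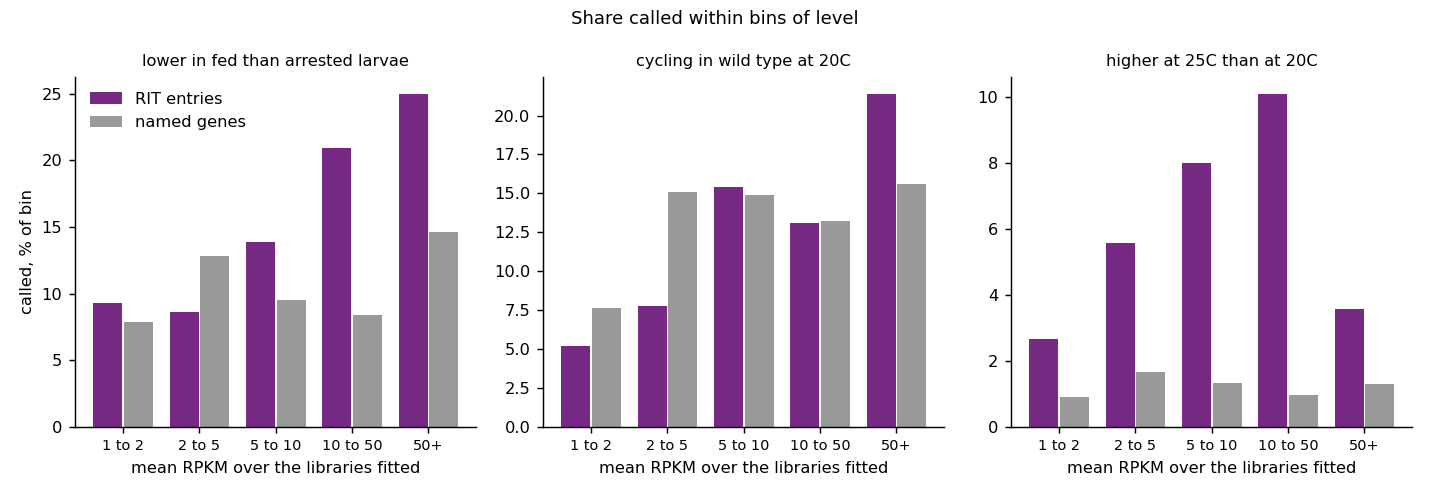
Share called (%) among RIT entries (purple) and named genes (grey) within 5 bins of mean RPKM, for entries lower in fed than in arrested larvae (left), cycling in wild type at 20C (middle) and higher at 25C than at 20C (right). In the right panel RIT entries are above named genes in every bin, from 2.67 against 0.903% at 1 to 2 RPKM to 10.1 against 0.948% at 10 to 50 RPKM.

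The RIT entries with the largest ranges shared their courses with genes of the molting cycle. RIT2M.658 had 0.152, 63.5 and 249 RPKM as its lowest, median and highest value from 6 to 38 h in lin-4 larvae, and 0.437, 82.9 and 276 RPKM in wild type at 20C. It was highest at 18 h in lin-4 larvae and at 14 h in wild type, and its fitted range was 4.16 ± 0.42 log2 in lin-4 larvae (limma, adjusted p 9.3e-05) and 3.21 ± 0.80 in wild type (adjusted p 0.021). At 25C it had 0.295 to 325 RPKM and was not called. The 3 genes most like it were sqt-2, sqt-1 and rol-6, all cuticle collagen genes (r 0.995, 0.99 and 0.989). RIT2M.305 had 2.4 to 121 RPKM in lin-4 larvae and 3.54 to 120 RPKM in wild type at 20C, with fitted ranges of 3.71 ± 0.51 and 3.08 ± 0.61 log2 (limma, adjusted p 0.00044 and 0.0059), and was most like ptr-18, a patched-related gene (r 0.997). RIT5M.817 peaked earlier, with ranges of 3.51 ± 0.86 log2 at 25C and 2.93 ± 0.58 in wild type at 20C (limma, adjusted p 0.031 and 0.0058). It was most like col-46, a collagen gene (r 0.984), with dpy-10 and mlt-11 nearly as close (r 0.983 each). Where the gene had at least 1 RPKM, the entry was at 30.6 to 168% of the level of col-46. For mlt-11, which lies on chromosome V, this was 11.4 to 17.8%.

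Other RIT entries peaked at other phases. In wild type at 20C the fitted peaks within the 11.25 h period lay at 0.77 h for RIT5M.817, 2.34 h for RIT2M.658, 2.89 h for RIT2M.305, 3.97 h for RIT1M.217, 6.84 h for RIT2M.1208, 7.55 h for RIT2M.1319 and 10.37 h for RIT5P.793. RIT2M.1208 was near 0 at its trough, with 0.0232 to 33.0 RPKM in lin-4 larvae, 0 to 33.0 RPKM at 25C and 0.0118 to 17 RPKM in wild type at 20C. Its range was 3.41 ± 0.74 log2 at 25C and 3.08 ± 0.35 in wild type at 20C (limma, adjusted p 0.019 and 0.0004), and its most alike gene was K10H10.4 (r 0.991). RIT2M.1319 followed col-80, a collagen gene (r 0.999), at 69.0 to 89.5% of its level in the 67 libraries where col-80 had at least 1 RPKM. The range of RIT2M.1319 was 3.74 ± 0.39 log2 in lin-4 larvae (limma, adjusted p 0.00012). RIT5P.793 had a range of 3.78 ± 0.55 log2 there (limma, adjusted p 0.00062) and was most like col-149 (r 0.929). At 25C RIT1M.217 had the largest range, 4.31 ± 0.80 log2 (limma, adjusted p 0.0095), with 0 to 271 RPKM, and RIT2P.830 had 0.17 to 107 RPKM and a range of 3.37 ± 0.87 log2 (limma, adjusted p 0.038). Their most alike genes were Y48G8AL.12 (r 0.997) and ptr-16, another patched-related gene (r 0.968). These 25C calls were not stable: of 8 alternatives each, the call was lost in 3 for RIT1M.217, 4 for RIT2M.1208, 4 for RIT5M.817 and 5 for RIT2P.830 (limma, adjusted p 0.055 to 0.36 where lost). The calls of RIT2M.658 and RIT2M.1208 in wild type at 20C were lost in 2 and 1 of 8, and that of RIT2M.1319 in lin-4 larvae in 1 of 9.

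RIT5M.1807 was an abundant cycling entry with a smaller range. From the start of the tested window it had 182, 499 and 948 RPKM as lowest, median and highest value in lin-4 larvae, 109, 359 and 954 RPKM at 25C, and 231, 432 and 888 RPKM in wild type at 20C. Its fitted range was 1.16 ± 0.33, 1.88 ± 0.28 and 1.36 ± 0.17 log2 in the 3 series (limma, adjusted p 0.032, 0.0041 and 0.00063). The 3 genes most like it were ZC513.5 (r 0.972), C48E7.1 (r 0.954) and fasn-1, the fatty acid synthase gene (r 0.945).

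**Figure D4:**
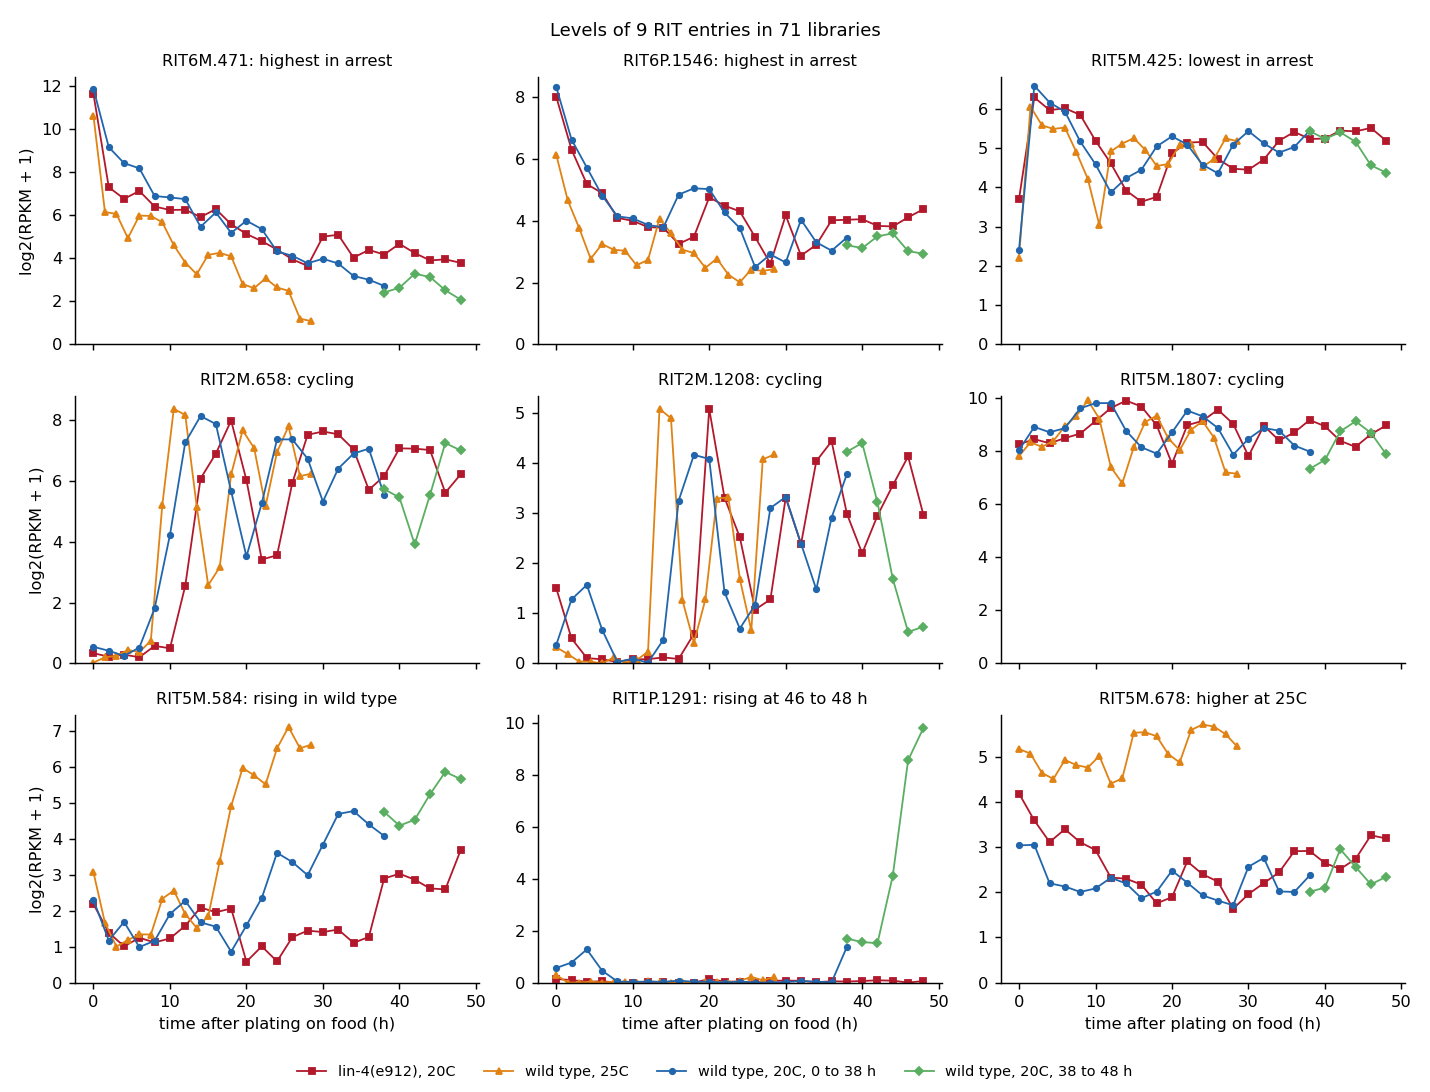
Levels of 9 RIT entries as log2(RPKM + 1) against time after plating (h), 1 point per library, in lin-4(e912) at 20C, wild type at 25C, wild type at 20C from 0 to 38 h and wild type at 20C from 38 to 48 h. RIT6M.471 and RIT6P.1546 are highest at 0 h, RIT2M.658 and RIT2M.1208 rise and fall repeatedly, and RIT5M.678 lies above the other populations at 25C in every library.

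Trends were tested as the linear part of time over the same 17 libraries, beside the cycling terms. In lin-4 larvae 41 of 714 RIT entries rose (5.74%), against 9.2% of named genes and 9.02% of all entries tested, and 126 fell (17.6%), against 15.4 and 15.5%. At 25C 72 of 773 rose (9.31%), against 11.2% of named genes and 11.1% of all entries, and 137 fell (17.7%), against 16.7 and 16.7%. In wild type at 20C 51 of 692 rose (7.37%), against 9.45% of named genes and 9.34% of all entries, and 96 fell (13.9%), against 16.4 and 16.3%. The median trend of the RIT entries tested was -0.38, -0.23 and -0.12 log2 in the 3 series, against -0.24, -0.14 and -0.09 for named genes. Within bins of mean RPKM the falling share of RIT entries was below that of named genes under 10 RPKM in all 3 series. From 10 RPKM on it was above. At 2 to 5 RPKM it was 18.2 against 27.8% in lin-4 larvae, 17.4 against 28.2% at 25C and 12.1 against 26.1% in wild type at 20C. At 10 to 50 RPKM it was 16.1 against 9.72%, 25 against 11.7% and 14.3 against 13.1%. The excess of falls over rises depended on the scale: with libraries rescaled by median-of-ratios size factors, which moved the median trend of all entries to 0.06, 0.08 and 0.08 log2, 51 RIT entries rose and 72 fell in lin-4 larvae, 93 and 96 at 25C, and 70 and 78 in wild type at 20C.

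Of the RIT entries that fell, 64 did so in both lin-4 larvae and wild type at 20C (50.8% of 126 and 66.7% of 96), and 72 in both wild type series (52.6% of 137 and 75% of 96). Of those that rose, 21 were shared by lin-4 larvae and wild type at 20C (51.2% of 41 and 41.2% of 51) and 33 by both wild type series (45.8% of 72 and 64.7% of 51). Among named genes the falls in wild type at 20C were shared by 66.4% of those in lin-4 larvae and 71.1% of those at 25C, and the rises by 53.8 and 62.7%. In all 3 series 18 RIT entries rose (2.78% of 648) and 56 fell (8.64%), against 4.85 and 9.45% of named genes. No RIT entry was called in opposite directions in wild type at 20C and in either other series, and 5 named genes were so at 25C and 9 in lin-4 larvae.

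RIT6M.471 continued to fall after the first hours of feeding. It went through medians of 33.0 RPKM in lin-4 larvae from 6 to 38 h, 12.9 RPKM at 25C from 4.5 to 28.5 h and 35.1 RPKM in wild type at 20C from 6 to 38 h, with lowest values of 11.5, 1.11 and 5.56 RPKM. The fitted change was -2.86 ± 0.37, -4.31 ± 0.27 and -4.76 ± 0.30 log2 (limma, adjusted p 9.7e-06, 5.7e-09 and 8.4e-09). RIT3P.679 fell by 2.67, 3.41 and 3.84 log2 in the same order of series (limma, adjusted p 2.1e-07, 4.1e-09 and 5.6e-10), with 53.4, 53.8 and 48.9 RPKM in the first library of each window and lowest values of 5.81, 3.49 and 3.44 RPKM. Its most alike gene was odr-3, which encodes a G protein subunit of olfactory neurons (r 0.984). RIT6M.145 fell by 3.37, 3.47 and 3.47 log2 (limma, adjusted p 2.6e-07, 9.5e-05 and 1.4e-06), with 20.9 to 220 RPKM in lin-4 larvae, 3.5 to 165 at 25C and 8.15 to 190 in wild type at 20C, and was most like osm-1, a gene of transport within sensory cilia (r 0.952). RIT6M.1080 was called falling at 25C (-3.69 ± 0.25 log2, limma, adjusted p 1.6e-08), where it had 0.0941 to 10.1 RPKM. In lin-4 larvae and wild type at 20C its means from 6 to 38 h were 0.758 and 0.458 RPKM, too low to be tested. It had 0.0414 to 2.05 and 0 to 1.96 RPKM there, with the highest value at 6 h in both. Its most alike gene was fbxa-185, an F-box gene (r 0.955).

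Among rising entries, RIT5M.584 had 1.27, 9.33 and 137 RPKM as lowest, median and highest value at 25C and 0.814, 4.1 and 26.3 RPKM in wild type at 20C, with fitted rises of 6.52 ± 0.59 and 3.64 ± 0.42 log2 (limma, adjusted p 2.5e-07 and 2.4e-06). RIT1P.866 rose by 3.68 ± 0.40 log2 in wild type at 20C, where it had 0.728, 8.55 and 25.8 RPKM (limma, adjusted p 1.4e-06), and its most alike gene was col-142, a collagen gene (r 0.878). In lin-4 larvae the largest rises were those of RIT1M.217 (5.85 ± 0.56 log2; limma, adjusted p 6.8e-07) and RIT2M.658 (5.75 ± 0.75; limma, adjusted p 9.6e-06), both also cycling entries that were near 0 in the first libraries. RIT1M.217 also rose by 5.64 ± 1.41 log2 at 25C (limma, adjusted p 0.0035).

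In the later wild type 20C population, from 38 to 48 h, the RIT share of summed RPKM was 1.63, 1.66, 1.79, 1.82, 1.92 and 2.13% in order of time. In lin-4 larvae over the same hours it lay between 1.67 and 1.86%. A linear trend over these 6 libraries, a fit that was added after the data had been seen, called 57 of 735 RIT entries rising (7.76%), against 10.5% of named genes and 10.3% of all entries tested. It called 14 falling (1.9%), against 2.79 and 2.75%. RIT1P.1291 had 2.23, 1.94, 1.86, 16.3, 373 and 884 RPKM from 38 to 48 h (9.15 ± 1.74 log2; limma, adjusted p 0.021). It was at or below 0.0993 RPKM in every lin-4 library up to 48 h, and its most alike gene was col-63, a collagen gene (r 0.998). In the 10 libraries where col-63 had at least 1 RPKM, RIT1P.1291 was at 45.1 to 116% of its level (median 108%). RIT6P.1307 had 0.0623, 0.138, 0.298, 1.93, 14.7 and 27.2 RPKM (5.17 ± 0.86 log2; limma, adjusted p 0.016), and 3.27 RPKM as its highest value in lin-4 larvae, at 48 h. Both entries were low up to 42 h and highest in the last library.

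RIT5M.2120, named after its values were seen, had 48.1, 32.8, 6.89, 4.45, 202 and 1440 RPKM over the same times and added 1390 RPKM of the 3705 RPKM by which the RIT sum at 48 h exceeded that at 38 h. RIT1P.1291 added 882 RPKM. Without these 2 entries the RIT share was 1.82% at 48 h, against 1.62% at 38 h. The linear trend of RIT5M.2120 was not called (4.51 ± 2.88 log2; limma, adjusted p 0.3). RIT2M.1208 fell over these hours, with 17.8, 20.2, 8.31, 2.23, 0.549 and 0.663 RPKM (-4.34 ± 0.58 log2; limma, adjusted p 0.011), and RIT1P.750 with 6.65, 6.08, 3.29, 0.885, 0.203 and 0.703 RPKM (-2.81 ± 0.50; limma, adjusted p 0.019). Both were cycling entries in the earlier libraries, and the window is shorter than 1 fitted period at 20C, so a trend and a cycle cannot be told apart there.

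The mutant was compared with wild type at the 17 equal labelled times from 6 to 38 h at 20C, with time as a block. The fitted period was longer in lin-4 larvae, so equal labelled times can fall on different phases of the molting cycle. Of 709 RIT entries, 1 was higher in lin-4 larvae (0.141%), against 0.373% of named genes and 0.361% of all entries tested. A further 3 were lower (0.423%), against 0.77 and 0.751%. With rescaled libraries the counts were 0 higher, where limma gave 143 an unadjusted p under 0.05, and 3 lower. RIT3P.373 had 2.69, 4.03 and 7.84 RPKM as lowest, median and highest value in lin-4 larvae, against 0.608, 1.52 and 3.14 RPKM in wild type (1.01 ± 0.09 log2; limma, adjusted p 6.4e-07). Its call was lost in 2 of 5 alternatives, and with rescaled libraries its change was 0.93 log2, under the size that a call needs. The later wild type population had 2.26 to 4.65 RPKM.

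RIT5P.968 had 0.113, 0.57 and 1.24 RPKM in lin-4 larvae, against 0.598, 2.91 and 5.39 RPKM in wild type (-1.17 ± 0.12 log2; limma, adjusted p 2.7e-06). Wild type at 25C had 0.114, 2 and 4.63 RPKM from 4.5 to 28.5 h. The later wild type population, at 38 to 48 h, had 0.19 to 1.68 RPKM. At 38 h the values were 0.908 RPKM in lin-4 larvae and 1.68 and 1.21 RPKM in the later and the earlier wild type population. RIT5M.584 had 0.496, 1.41 and 6.43 RPKM in lin-4 larvae, against 0.814, 4.1 and 26.3 RPKM in wild type (-1.28 ± 0.34 log2; limma, adjusted p 0.0067). In the later wild type population it had 19.6 to 57.1 RPKM and in lin-4 larvae it reached 11.8 RPKM at 48 h. From 20 h on, the wild type value was above the lin-4 value at every equal time.

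A change of the genotype difference over time was tested in the same libraries, also as an addition made after the data had been seen. The lin-4 minus wild type difference became more positive for 10 of 709 RIT entries (1.41%), against 2.01% of named genes and 1.98% of all entries tested. It became more negative for 18 (2.54%), against 1.51 and 1.57%. With rescaled libraries these counts were 15 and 17. RIT6M.471 and RIT3P.679 fell less in lin-4 larvae than in wild type, by 2.04 ± 0.37 and 1.20 ± 0.30 log2 over the window (limma, adjusted p 0.0034 and 0.019). RIT5M.584 changed by -3.51 ± 0.74 log2 (limma, adjusted p 0.009). For RIT1M.217, RIT1P.866, RIT2M.658 and RIT6M.145 the change of the difference was not called (limma, adjusted p 0.52, 0.2, 0.28 and 0.67).

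The 25C series stood out for RIT entries. Times at 25C were multiplied by 1.3, the factor at which 25C libraries correlated best with 20C libraries (mean r 0.961), and 16 libraries at 25C were set against the 17 of wild type at 20C. Of 728 RIT entries, 41 were higher at 25C (5.63%), against 1.18% of named genes and 1.42% of all entries tested. Only 2 were lower (0.275%), against 0.513 and 0.5%. The share called higher was 2.67% of RIT entries against 0.903% of named genes at 1 to 2 RPKM, 5.58 against 1.67% at 2 to 5, 8 against 1.33% at 5 to 10, 10.1 against 0.948% at 10 to 50 and 3.57 against 1.31% at 50 RPKM and over. Across the whole class the shift was small: over the 781 RIT entries with a mean of at least 1 RPKM, the median difference of the 25C and 20C windows was 0.12 log2, against 0.08 for named genes.

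The 41 entries higher at 25C already differed in arrested larvae at 0 h, before plating on food. Their median difference of wild type at 25C and at 20C was 1.23 log2 in the fed windows, which chose them, and 1.15 log2 at 0 h, with 38 of 41 above 0. At 0 h 23 of the 41 were at 1 log2 or more. Over all 781 RIT entries the median at 0 h was 0.04 log2, and 53 (6.79%) were at 1 log2 or more. Both comparisons set the same 25C population against the same 20C population, and differences between populations other than temperature were not tested. Between the populations at 20C the offsets of these entries were smaller: lin-4 minus wild type gave a median of 0.22 log2 from 6 to 38 h and 0.38 log2 at 0 h, and the later minus the earlier wild type population gave 0.05 log2 at 38 h. Over all 781 RIT entries these medians were 0.11, 0.18 and 0.03 log2. The 41 entries were chosen for the 25C difference, so smaller offsets without the 25C population follow in part from that choice. The 41 entries carried each of the 6 digits, 5, 12, 6, 3, 11 and 4 times for 1 to 6. The most alike named gene of 27 of them was itself called higher at 25C, but likeness was measured over libraries that include the 25C series, which favours such genes.

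RIT5M.678 had the largest of these differences, with 20.3, 32.6 and 51.9 RPKM as lowest, median and highest value at 25C from 4.5 to 28.5 h, against 2.28, 3.25 and 5.8 RPKM in wild type at 20C from 6 to 38 h (3.01 ± 0.10 log2; limma, adjusted p 1.5e-19). Every 25C library was above every 20C library of any population. The highest value at 20C was 17.3 RPKM, in arrested lin-4 larvae. RIT3M.1359 had 5.42, 8.08 and 29.5 RPKM at 25C, against 0, 1.17 and 3.5 RPKM in wild type at 20C (2.07 ± 0.18 log2, limma, adjusted p 2e-10), with no overlap between these windows. Its implied length was only 91 bases, which makes its values coarse. RIT6M.471 and RIT6P.1546, the entries with the largest falls in fed against arrested larvae, were the 2 lower at 25C, by -1.34 ± 0.13 and -1.01 ± 0.14 log2 (limma, adjusted p 3.3e-09 and 1.3e-06).

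Each of the 781 RIT entries with a mean of at least 1 RPKM was set beside the 13205 named genes of that level, and the gene with the highest Pearson r of log2(RPKM + 1) over the 71 libraries was taken. The median of these highest r was 0.875 (quartiles 0.779 and 0.935), with 145 RIT entries at 0.95 or more, 55 at 0.98 or more and 30 at 0.99 or more. The libraries share their time courses, and the highest of many r is high by choice, so these are descriptions. Nuclear hormone receptor genes were the most alike gene of 14 RIT entries (1.79%), F-box genes of 13 (1.66%) and collagens of 12 (1.54%). These families make up 1.48, 0.735 and 1.01% of the 13205 named genes compared. A most alike gene outside the families counted was found for 709 RIT entries (90.8%), and 91.4% of the named genes lie outside them.

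The closest pairs followed the identifiers. With the digits 1 to 6 read as chromosomes I, II, III, IV, V and X, a reading chosen after the values were seen, the digit matched the chromosome of the most alike gene for 30 of 30 RIT entries at r of 0.99 or more. It matched for 20 of 24 with an annotated gene at 0.98 to 0.99 (83.3%), for 54 of 84 at 0.95 to 0.98 (64.3%) and for 18 of 82 below 0.7 (22.0%). Of the 30 closest pairs, 29 (96.7%) had the gene on the strand opposite to the letter, with P read as plus and M as minus. RIT5M.666 and lys-1, RIT5P.352 and asp-1, RIT2M.658 and sqt-2, RIT2M.1319 and col-80, and RIT1P.1291 and col-63 were such pairs, and RIT1M.217 with Y48G8AL.12 had both on 1 strand. The sources do not say whether the authors counted by strand, so reads of a RIT entry and of a gene that overlaps it on the opposite strand cannot be told apart.

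**Figure D5:**
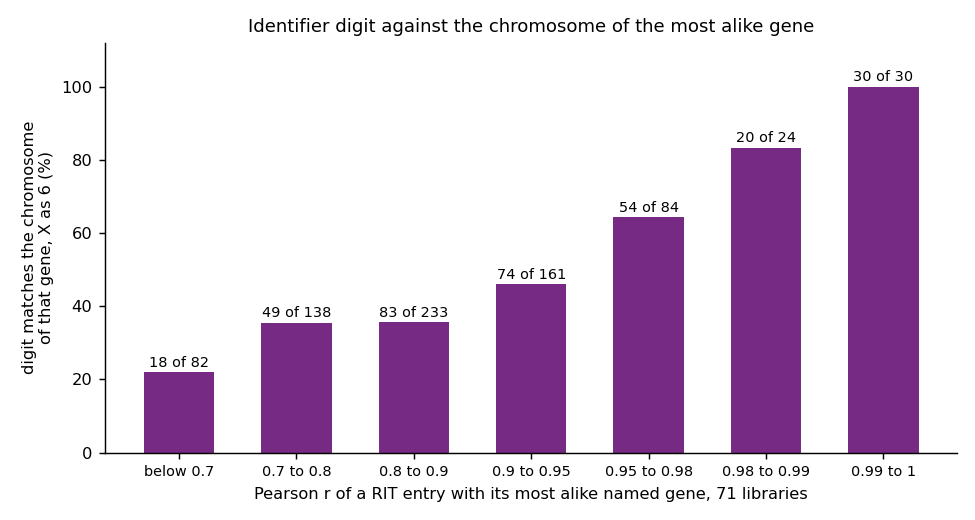
Share of RIT entries (%) whose identifier digit, with X as 6, matches the chromosome of their most alike named gene, against the Pearson r with that gene over 71 libraries. The share is 22.0% below r 0.7 (18 of 82) and 100% at r of 0.99 or more (30 of 30).

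The most alike gene was chosen over the libraries that also gave the calls, so shared calls of close pairs follow in large part from that choice and are given as counts. In wild type at 20C 27 of the 65 cycling RIT entries had a most alike gene at r of 0.95 or more, against 135 of all 692 tested. That gene also cycled for 25 of the 27. In lin-4 larvae 31 of the 67 cycling entries had such a gene, against 135 of all 714 tested, and it also cycled for 29. In fed against arrested larvae 10 of the 36 higher and 21 of the 110 lower RIT entries had a gene that close, against 125 of all 899 tested. Of the 41 entries higher at 25C 9 did, against 140 of all 728 tested. Among the other RIT entries tested, 38 of 557 cycled in wild type at 20C (6.82%), 89 of 774 were lower in fed larvae (11.5%) and 32 of 588 were higher at 25C (5.44%). RIT entries with a mean under 1 RPKM over the 71 libraries were not set beside any gene and count among these others.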

How the data were processed

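The authors deposited 1 table of RPKM values (reads scaled by entry length and library size) for 71 libraries. The aligner was BWA 0.5.9 according to the submitters' processing notes. Build, annotation, counting rule and strand use were not given in the sources used here, so no coordinates or sequences are printed. The table holds 21777 entries, no 0 and 235753 empty cells, which were taken as 0; of 3 identifiers with a repeated row, 1 row was kept.

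Depth was recovered from the steps between low values, which are whole reads within a tolerance of 0.0001. Its absolute scale comes from annotated single-transcript genes of the WBcel235 annotation, where 104 of 4785 agreed on it. For 7495 such genes, 65.7% of the implied lengths were within 20% of the annotated one, a check that is not independent of the scale, so absolute depths are estimates. Intervals for single values were not computed.

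The tests were fitted in limma 3.58.1 (R 4.3.3) to log2(RPKM + 1). Entries entered with a mean of 1 RPKM or more in the fitted libraries, with named genes and unnamed entries fitted together and Benjamini-Hochberg adjustment over all of them. Calls needed an adjusted p below 0.05 and an effect of 1 log2 unit or more, a scale that understates changes of low entries. Cycling fits held a spline of time (3 degrees of freedom), and the temperature fit a spline of aligned time with 4. The fits for fed against arrested larvae, cycling, trend and genotype were also run on simulated data with independent noise between libraries and a known period. Such data cannot show how likeness of neighbouring time points, or a period chosen on the same libraries, affects the calls. The rest used pandas 2.3.3, NumPy 2.4.6 and Matplotlib 3.10.9 under Python 3.11.15.

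Pairs in fed against arrested larvae come from the same population, and their deviations from group means correlated with a median r of 0.337 (3 of 3 over 0.1). For lin-4 against wild type, which share only the labelled time, the median was 0.434, the lowest was -0.287 and 14 of 17 pairs were over 0.1.

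The members, the lists and the tests were chosen with earlier results of these data known. RIT entries named in the text are, per comparison, the 2 with the largest rise and the 2 with the largest fall among those called (the 4 with the largest range for cycling; for fed against arrested larvae only those moving one way in all 3 populations), and the 5 of highest mean. RIT5M.2120 was added after its values were seen. Alternatives were another pseudocount, filter and scaling, no block, populations left out, other periods, windows, trends and time factors, and the later wild type population.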

Additional observations from a re-analysis of the deposited data

Results flagged for a closer look

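For 3 RIT entries named in the report, the effect of time differed between the genotypes by a test of the difference itself. The lin-4 minus wild type difference changed over 6 to 38 h by 2.04 log2 for RIT6M.471 (SE 0.37; limma, adjusted p 0.0034), by 1.20 log2 for RIT3P.679 (SE 0.30; limma, adjusted p 0.019) and by -3.51 log2 for RIT5M.584 (SE 0.74; limma, adjusted p 0.009). RIT6M.471 and RIT3P.679 fell in both genotypes, and less in lin-4 larvae. RIT5M.584 rose in wild type and reached 6.43 RPKM in lin-4 larvae by 38 h, against 26.3 RPKM in wild type at its highest. Whether lin-4 larvae were at the same stage as wild type at equal labelled times was not tested.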

How the results depend on the processing

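No alternative reversed a direction. Of 260 values of called single RIT entries under alternatives, 238 kept their call and 22 lost it, 16 of these for cycling at 25C. Requiring a mean of at least 5 RPKM tests fewer entries, and left 17 RIT entries higher and 60 lower in fed larvae; 29, 30 and 35 cycling in lin-4 larvae, at 25C and in wild type at 20C; 18 rising and 44 falling in lin-4 larvae, 18 and 52 at 25C, 17 and 37 in wild type at 20C, 9 and 3 from 38 to 48 h; 0 higher in lin-4 larvae (limma, 66 at an unadjusted p under 0.05) and 1 lower; 21 higher at 25C; and 8 with a more negative genotype difference over time. A pseudocount of 0.1 gave 103 cycling in lin-4 larvae, 78 rising and 148 falling in wild type at 20C, 2 higher and 6 lower in lin-4 larvae, and 76 higher and 8 lower at 25C. No filter gave 90 rising from 38 to 48 h. All time points gave 31 cycling in wild type at 20C and 1 at 25C, where a linear trend gave 32, a period 1 h shorter 0 (limma, 113 at an unadjusted p under 0.05) and 1 h longer 11. Rescaling gave 72 falling and 0 higher in lin-4 larvae. Against the wild type libraries of 38 to 48 h, 2 were higher and 8 lower in lin-4 larvae. Of these 10, 1 was among the 4 RIT entries called from 6 to 38 h. The cause of these moves was not tested, other than the smaller number tested at 5 RPKM. Leaving out 1 population at a time gave 27 to 45 higher and 98 to 123 lower in fed larvae. Without the replicate block these were 35 and 100, and lin-4 larvae had 1 higher and 3 lower; the block changed no call of a named entry. Low levels limit what could be tested, since only 781 of 2081 RIT entries had a mean of at least 1 RPKM.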
